A study of Mus musculus with 4 samples.

Results

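Mt1, Mt2, Mtf1, Slc30a1 and Slc39a4 are 5 of the 11489 protein-coding genes measured in mouse ileum, and they cover the storage, sensing, export and uptake of zinc. They were chosen by gene symbol, with the difference of Mt1 and Mt2 between pregnenolone-16α-carbonitrile (PCN) and vehicle (Veh) already known. The values of these 5 genes in that contrast are therefore given as a description, without a test. The question asked was whether Mt1 and Mt2 moved alone or together with the genes that carry zinc across membranes.

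Metallothioneins are small cytosolic proteins whose many cysteines hold zinc and copper ions. When free zinc rises in a cell, the zinc-finger factor MTF1 (encoded by Mtf1) binds metal response elements in DNA and switches on the metallothionein genes and Slc30a1. In the small intestine ZIP4 (Slc39a4) takes up dietary zinc at the apical membrane, ZnT1 (Slc30a1) passes it to the blood side, and metallothioneins buffer it in between. Metallothionein genes are also known to respond to glucocorticoids, to oxidants and to inflammatory signals.

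The samples were ileum, the last segment of the small intestine, of WT C57BL/6J mice aged 8 weeks. PCN, a steroid agonist of the pregnane X receptor (PXR), was given intraperitoneally at 40 mg/kg as 3 injections 8 h apart in a mix of DMSO and corn oil, and tissue was taken 8 h after the last one. The Veh libraries were labelled DMSO, and each group had 2 libraries made from total RNA. Expression was given as FPKM, fragment numbers set relative to transcript length and to library size, and was summed per gene, so levels can be compared between genes. All 5 genes were above 1 FPKM in every library and were among the 11103 genes that entered the fit because their mean reached 1 FPKM. Nothing in the labels says that each library came from a separate animal. The p-values then reflect only how much these 4 libraries scatter, which may be technical scatter. In the whole-table fit (limma, adjusted p under 0.05 by Benjamini-Hochberg), 9 genes were called higher and 6 lower in PCN. All 10 ileum epithelium markers were detected in every library, Fabp6, Slc10a2, Vil1 and Cdx2 among them. Veh replicate 2 stood apart from the other libraries in its alpha-defensins, with 32480 FPKM of Defa24 against 0 in the other 3, so values without it are given where they matter.

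Mt2 and Mt1 lie side by side on the plus strand of chromosome 8 (GRCm38, GENCODE M21), Mt2 (ENSMUSG00000031762.7) at 94172664 to 94173568 and Mt1 (ENSMUSG00000031765.8) at 94179082 to 94180327. The main transcript of each has 3 exons, and both coding sequences span 186 bases. The coding sequences are shown to let the likeness of the pair be judged, since reads from near-identical genes can be assigned to the wrong one. Capitals mark the cysteine codons, which make up 20 of 61 codons (32.8%) in each and stand at the same position in both.
Mt1: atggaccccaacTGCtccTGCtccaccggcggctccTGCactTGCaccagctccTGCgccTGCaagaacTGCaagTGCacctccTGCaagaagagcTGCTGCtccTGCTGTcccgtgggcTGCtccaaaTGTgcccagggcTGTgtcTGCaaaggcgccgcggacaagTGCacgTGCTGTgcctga
Mt2: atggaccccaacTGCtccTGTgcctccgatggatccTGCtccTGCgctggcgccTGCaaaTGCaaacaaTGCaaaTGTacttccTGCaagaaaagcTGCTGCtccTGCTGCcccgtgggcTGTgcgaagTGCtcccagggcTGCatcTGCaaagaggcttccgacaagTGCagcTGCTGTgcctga
Of the 186 bases 148 (79.6%) were identical. The longest run of bases shared by both full transcripts was 20, so fragments longer than that differ between Mt1 and Mt2.

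The promoters of the pair are shown because metal response elements are the DNA through which zinc reaches these genes. Both are RefSeq windows (GRCm38.p6), printed from 250 bases before the annotated first base, on the plus strand. Mt1 is at chr8:94178839-94179118 and Mt2 is at chr8:94172368-94172647. Capitals mark matches to TGCGCNC or TGCACNC, the core of the metal response element, searched on both strands. The 2 forms differ at 1 base and cannot both match at 1 place.
Mt1: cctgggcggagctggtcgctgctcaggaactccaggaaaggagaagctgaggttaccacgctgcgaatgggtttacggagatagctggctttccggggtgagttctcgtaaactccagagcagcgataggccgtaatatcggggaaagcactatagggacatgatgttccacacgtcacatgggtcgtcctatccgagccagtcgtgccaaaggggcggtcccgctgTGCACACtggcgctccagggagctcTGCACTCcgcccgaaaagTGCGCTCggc
Mt2: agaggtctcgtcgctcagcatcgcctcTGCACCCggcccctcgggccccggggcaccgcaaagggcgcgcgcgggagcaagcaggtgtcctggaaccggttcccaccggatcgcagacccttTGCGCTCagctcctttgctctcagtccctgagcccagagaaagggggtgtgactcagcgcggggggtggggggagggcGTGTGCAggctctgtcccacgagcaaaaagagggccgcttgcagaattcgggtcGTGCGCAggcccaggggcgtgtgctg
Counted from 0 at the first base annotated in RefSeq, the matches began at -23, 2 and 20 in Mt1 and at -223, -128, -50 and 4 in Mt2. That base differs from the GENCODE start given above in both genes. A match near 0 can therefore lie on the other side of the GENCODE start. The search covered 250 bases before and 50 bases after the start. In the window of Slc30a1 (chromosome 1) it found 2 matches, at -43 and 30, and in that of Mtf1 (chromosome 4) it found 0. The Mtf1 window held the start of transcript ENSMUST00000030723.2 (124802549) and not that of ENSMUST00000106193.7 (124802104). Among all 32851 promoter windows, 25.7% held at least 1 match, 7.11% at least 2, 1.97% at least 3 and 0.517% at least 4. For the other ZIP and ZnT genes, the window with the most matches was taken for each gene. In 9 of 16 genes it held a match, up to 3 in Slc30a4 and Slc30a10. This count per gene cannot be set against the shares per window. Such a match is a description of the letters and was not tested as a binding site.

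Mt1, the more abundant metallothionein, had 370 and 329 FPKM in the Veh libraries and 704 and 829 FPKM in the PCN libraries. Both PCN libraries lay far above both Veh libraries, and the groups did not overlap. The mean went from 349 ± 29.4 to 767 ± 88.6 FPKM (± SD, 2 libraries per group throughout), a ratio of 2.20 and a difference of 1.13 ± 0.11 (SE) in log2(FPKM + 1), the scale of all log2 differences below. In whole tissue, more cells of a type and more RNA per cell cannot be told apart. Among all genes ordered by FPKM, Mt1 stood at rank 169 and 194 in Veh and at 85 and 62 in PCN.

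Mt2 had 128 and 135 FPKM in Veh and 449.8 and 537 FPKM in PCN. Again the groups were far apart, and the gap was larger in proportion than for Mt1. The mean went from 132 ± 5.48 to 494 ± 61.9 FPKM, a ratio of 3.75 and a log2 difference of 1.90 ± 0.10. Mt2 moved from rank 515 and 481 in Veh to rank 140 and 113 in PCN. Mt3 and Mt4, the metallothioneins known mainly from brain and from stratified epithelium, were not in the table analysed here.

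**Figure D1:**
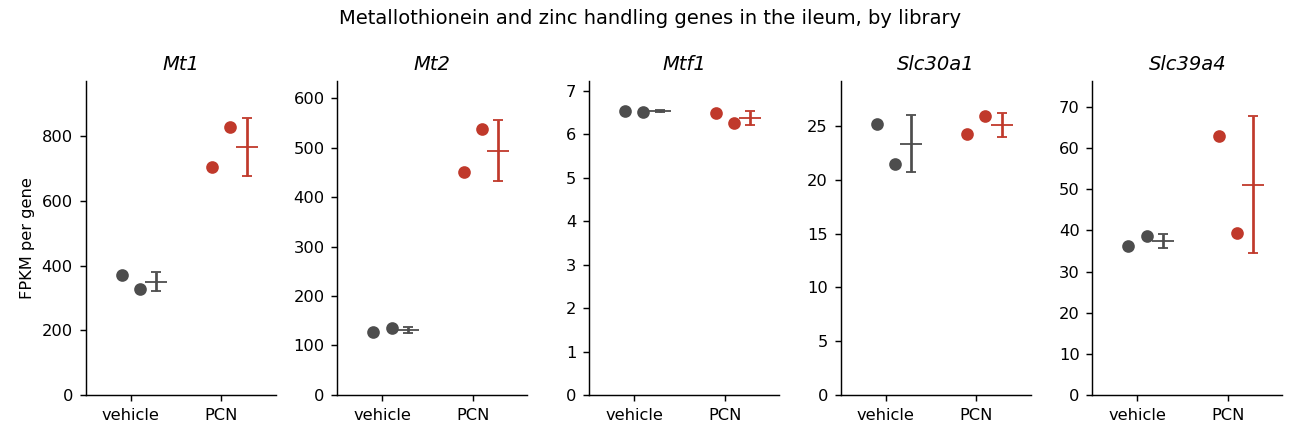
FPKM per gene (vertical axes from 0, 1 scale per gene) of the 5 genes in each vehicle (grey) and PCN (red) library, with the mean ± SD of each group beside the points. Mt1 and Mt2 separate the groups (329 to 370 against 704 to 829, and 128 to 135 against 449.8 to 537), Mtf1 and Slc30a1 stay level, and Slc39a4 has 1 high PCN library at 62.9.

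Together the pair summed to 498 and 464 FPKM in Veh and to 1154 and 1367 FPKM in PCN, a ratio of means of 2.62. This was 0.103% and 0.0842% of all FPKM in Veh and 0.226% and 0.284% in PCN. The balance within the pair also differed between the groups. Mt1 exceeded Mt2 by a factor of 2.90 and 2.43 in Veh and of 1.57 and 1.54 in PCN. The ratio averaged 2.66 ± 0.334 in Veh and 1.55 ± 0.0156 in PCN, and Mt2 went from 27.4% ± 2.50 to 39.1% ± 0.240 of the pair. Mt1 thus remained the more abundant gene in all 4 libraries, by a smaller margin under PCN.

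**Figure D2:**
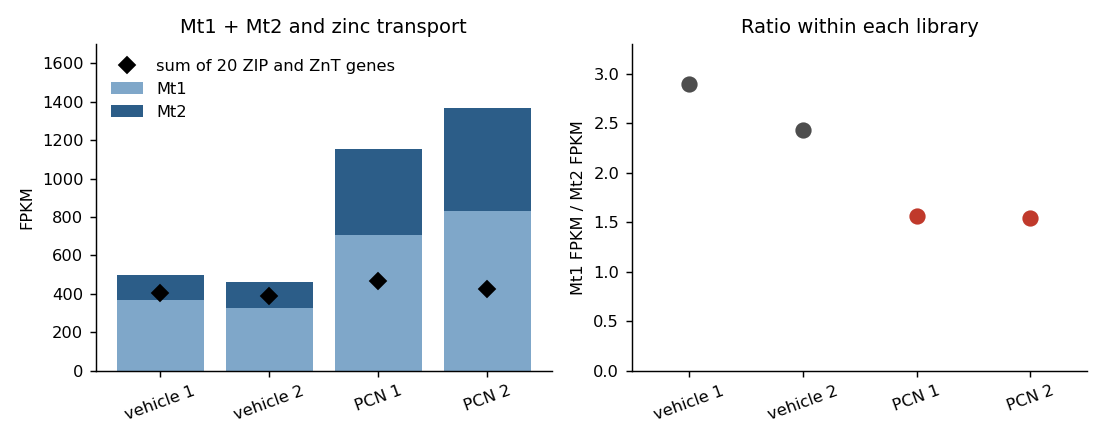
Left, FPKM of Mt1 and Mt2 stacked for each library, with the summed FPKM of the 20 measured zinc transport genes as diamonds. The pair went from 464 to 498 FPKM in vehicle to 1154 to 1367 in PCN while the transport sum went from 386 to 406 in vehicle to 425 to 466 in PCN. Right, the ratio of Mt1 to Mt2 FPKM in each library, 2.90 and 2.43 in vehicle and 1.57 and 1.54 in PCN.

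Mtf1 (ENSMUSG00000028890.13), the zinc sensor that drives both metallothionein genes, had 6.55 and 6.51 FPKM in Veh and 6.50 and 6.27 FPKM in PCN. The 4 libraries were nearly level, with both PCN libraries just below both Veh libraries. The log2 difference was -0.03 ± 0.13.

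Slc30a1 (ENSMUSG00000037434.7), the zinc exporter that MTF1 also drives, had 25.2 and 21.5 FPKM in Veh and 24.3 and 25.9 FPKM in PCN. The groups overlapped. The ratio of means was 1.07 and the log2 difference 0.10 ± 0.11, against 1.13 for Mt1.

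Slc39a4 (ENSMUSG00000063354.7), the apical zinc importer, had 36.2 and 38.7 FPKM in Veh and 62.9 and 39.4 FPKM in PCN. Only PCN replicate 1 was clearly high, and PCN replicate 2 lay beside the Veh libraries. The mean went from 37.5 ± 1.78 to 51.1 ± 16.6 FPKM, with a log2 difference of 0.40 ± 0.22. It was 0.07 without PCN replicate 1 and 0.73 without PCN replicate 2, so 1 library decided its size.

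Of the 5 genes, 1 (Mt2) was among those called higher, where the background over all tested genes was 0.0811% (0.135% in either direction). Both PCN libraries lay above both Veh libraries in 3 of the 5 (background 21.1%) and below in 1 (background 19.1%). As the genes were chosen with this contrast in view, nothing is read from these counts. The call of Mt2 did not hold when any 1 of the 4 libraries was left out.

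The other zinc transport genes were tested. ZIP proteins (Slc39 genes) bring zinc into the cytosol, and ZnT proteins (Slc30 genes) take it out, to the outside or into organelles. Of 22 such genes besides Slc39a4 and Slc30a1, 18 were in the table and 16 were tested. None was called (limma), and 2 were higher and 0 lower at an unadjusted p under 0.05, where all genes gave 5.25% and 4.11%. The smallest adjusted p was 0.298. Among the 16, 10 log2 differences were above 0 and 6 below, with a median of 0.10 against 0.0029 over all tested genes and a range from -0.29 to 0.39. In 6 of them both PCN libraries lay above both Veh libraries (background 21.1%), in 3 below (background 19.1%), and in 7 the groups overlapped. The 95% intervals of all 16 together ran from -0.80 to 0.72, so each of them ended below the log2 difference of Mt1. Summed over the 20 measured ZIP and ZnT genes, expression was 406 and 386 FPKM in Veh and 466 and 425 in PCN, with both PCN sums above both Veh sums. The means were 396 ± 14.2 and 446 ± 28.6 FPKM, a ratio of 1.12 beside 2.62 for the metallothionein pair. Per unit of transporter FPKM, the pair was at 1.23 and 1.20 in Veh and at 2.48 and 3.21 in PCN.

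Among the importers, Slc39a1 (ZIP1, a plasma membrane importer) was the most abundant, with 59.6 and 64.0 FPKM in Veh and 69.2 and 72.1 in PCN (log2 difference 0.19 ± 0.08, adjusted p = 0.552). Slc39a5 (ZIP5), on the basolateral side of enterocytes, had 44.6 and 45.1 FPKM in Veh and 52.3 and 48.4 in PCN (0.16 ± 0.08). For both genes the groups did not overlap, but the differences were small and did not pass the test. Slc39a9 (ZIP9) had the lowest p of the tested importers, with 34.4 and 30.4 FPKM in Veh and 42.0 and 43.4 in PCN (0.39 ± 0.10, adjusted p = 0.298). Slc39a7 (ZIP7), which releases zinc from the endoplasmic reticulum, had 33.5 ± 0.441 FPKM in Veh and 38.5 ± 1.77 in PCN (0.19 ± 0.08). These were the higher importers, and none of them came near the differences of Mt1 and Mt2. Slc39a14 (ZIP14), which carries iron and manganese as well as zinc, had the lowest difference of the tested importers, with 21.7 and 19.5 FPKM in Veh and 18.2 and 15.1 in PCN (-0.29 ± 0.13, adjusted p = 0.572). The log2 differences of the rest were 0.11 ± 0.12 for Slc39a11, 0.18 ± 0.21 for Slc39a8 (ZIP8), -0.05 ± 0.14 for Slc39a3 and -0.20 ± 0.21 for Slc39a6. In these 4 genes the Veh and PCN libraries overlapped.

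Among the exporters, Slc30a2 (ZnT2), which loads zinc into secretory granules of Paneth cells, had the largest difference, with 22.8 and 19.4 FPKM in Veh and 30.1 and 25.4 in PCN (0.38 ± 0.13, adjusted p = 0.484). Slc30a5 (ZnT5), which supplies zinc to enzymes of the secretory pathway, had 34.3 and 31.1 FPKM in Veh and 41.7 and 35.0 in PCN (0.22 ± 0.12). Its partner Slc30a6 (ZnT6) lay the other way, with 10.6 and 9.15 FPKM in Veh and 9.11 and 7.94 in PCN (-0.19 ± 0.14). ZnT5 and ZnT6 form a heterodimer, and the differences of their genes had opposite signs without either passing the test. Slc30a4 (ZnT4) had 32.4 and 28.7 FPKM in Veh and 26.0 and 26.3 in PCN (-0.21 ± 0.10, adjusted p = 0.592). Slc30a7 (ZnT7, of the Golgi), Slc30a9 and Slc30a10 (a manganese exporter) had differences of 0.05 ± 0.16, -0.05 ± 0.29 and 0.08 ± 0.21, with overlapping groups. Slc39a9 and Slc30a2, the 2 largest differences among the 16 other transport genes, stood far below that of either metallothionein gene.

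**Figure D3:**
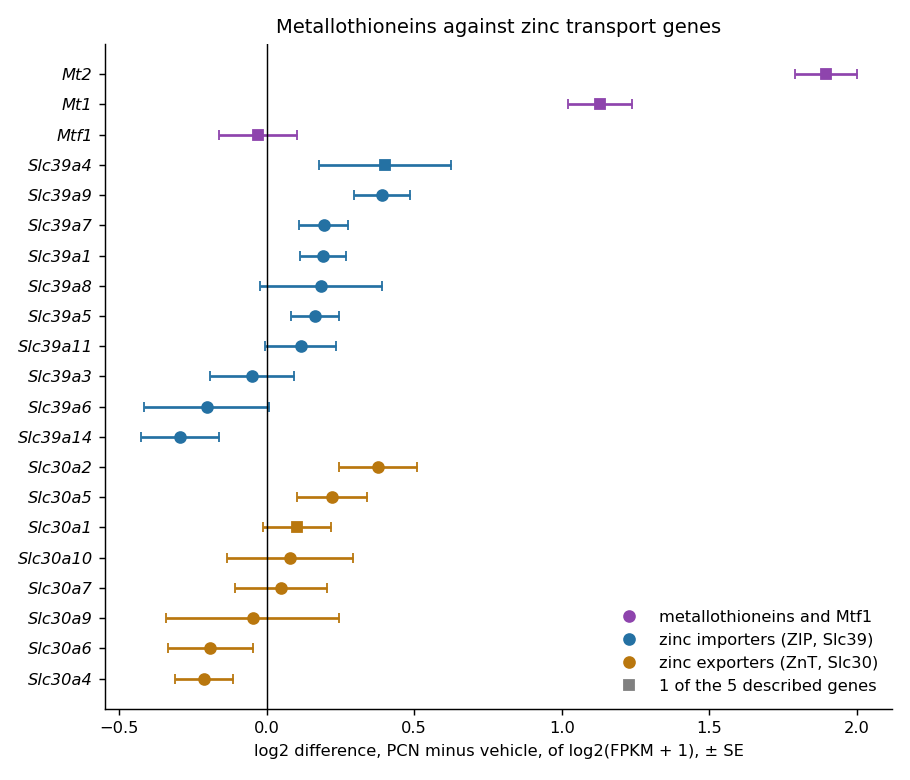
Log2 difference (PCN minus vehicle, of log2(FPKM + 1)) with its SE for the metallothioneins and Mtf1 (purple), 10 ZIP genes (blue) and 8 ZnT genes (orange), squares marking the 5 described genes, Slc39a4 and Slc30a1 among them. Mt2 at 1.90 and Mt1 at 1.13 lie apart from the transporters, which run from -0.29 to 0.40.

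Other genes reported to respond to MTF1 did not pass the test either. Besides the metallothioneins and Slc30a1, 3 were tested, and all 3 had differences below 0. Gclc, a subunit of the enzyme that starts glutathione synthesis, was at -0.04 ± 0.17, and Ndrg1 had 38.5 and 36.2 FPKM in Veh and 33.2 and 26.2 in PCN (-0.33 ± 0.13). Csrp1 had 64.7 and 117 FPKM in Veh and 51.2 and 54.1 in PCN (-0.72 ± 0.28, adjusted p = 0.534), and its value in Veh replicate 2 was the highest. Csrp1 is abundant in smooth muscle, and the summed smooth muscle markers were also highest in that library. A link between them was not tested.

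Metallothioneins also hold copper, so copper handling genes were counted. Of 10 tested, 5 were above 0 and 5 below (median -0.03), none was called, and 1 was higher (background 5.25%) and 0 lower at an unadjusted p under 0.05 (limma). That gene was Atp7a, the copper pump that exports copper from enterocytes, with 9.87 and 8.75 FPKM in Veh and 12.1 and 12.8 in PCN (0.39 ± 0.12, adjusted p = 0.444). The 2 most abundant copper genes, Sod1 (0.07 ± 0.08) and Cox17 (0.05 ± 0.09), overlapped between the groups. Slc31a1, the copper importer, was level at 52.9 ± 2.66 and 53.7 ± 2.36 FPKM.

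Of 10 iron handling genes none was called, 8 were above 0 (median 0.12), and 2 were higher (background 5.25%) and 0 lower at an unadjusted p under 0.05. Fth1, the ferritin heavy chain that stores iron, had 1813 and 1934 FPKM in Veh and 3028 and 3076 in PCN (0.70 ± 0.07, adjusted p = 0.0650). Slc40a1, ferroportin, which exports iron to the blood, had 39.4 and 40.0 FPKM in Veh and 62.2 and 52.2 in PCN (0.51 ± 0.11, adjusted p = 0.229). In both genes the PCN libraries lay above the Veh libraries. This held for 6 of the 10 iron genes (background 21.1%), and 1 lay below (background 19.1%). Hamp, among the 6, was in the table only through PCN, since a transcript needed a group mean above 1 FPKM. The ferritin light chain gene Ftl1 was at -0.12 ± 0.07, and the haem-degrading enzyme gene Hmox1 at -0.08 ± 0.17.

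Genes of other signals known to raise metallothioneins were counted next. Of 11 oxidant defence genes driven by NRF2, 3 were above 0 and 8 below (median -0.04), with 0 calls (limma) and 0 genes at an unadjusted p under 0.05. The 2 most abundant, Txn1 (thioredoxin) and Prdx1 (peroxiredoxin), were at -0.01 ± 0.09 and -0.16 ± 0.06. Of 10 heat shock genes, 0 were called and 0 reached an unadjusted p under 0.05, with a median of 0.07, and the most abundant, Hspa8 and Hspe1, were at 0.09 ± 0.07 and 0.13 ± 0.09. Of 10 glucocorticoid-responsive genes 1 was called, and it fell (background 0.135% called in either direction). At an unadjusted p under 0.05 there were 1 higher (background 5.25%) and 1 lower (background 4.11%). Sgk1, a kinase that regulates sodium transport, had 55.4 and 59.0 FPKM in Veh and 23.5 and 25.1 in PCN (-1.20 ± 0.09, adjusted p = 0.0443). Both PCN libraries of Sgk1 lay far below both Veh libraries. The call of Sgk1 was also lost with any 1 library left out, with the difference still below 0 each time. Fkbp5 and Tsc22d3, classical glucocorticoid targets, overlapped between the groups (-0.14 ± 0.35 and -0.04 ± 0.22). Per1, a clock gene that glucocorticoids induce, was the higher one, with 0.829 and nearly 0 FPKM in Veh and 3.57 and 1.99 in PCN (1.45 ± 0.39, adjusted p = 0.349). Per1 was in the table only through PCN, since its Veh mean (0.415) was under 1 FPKM. Nothing is therefore read from its place in the count. The most abundant gene of that list, Cdkn1a, was at -0.36 ± 0.15, and the 8 differences below 0 gave the list a median of -0.16.

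Some S100 proteins bind zinc outside cells and in inflamed tissue. Of 6 genes of zinc chelation and zinc sensing none was called (limma), 1 was higher (background 5.25%) and 1 lower (background 4.11%) at an unadjusted p under 0.05. S100a9, a subunit of calprotectin, which withholds zinc from microbes, had 9.18 and 13.6 FPKM in Veh and 17.9 and 39.9 in PCN (1.19 ± 0.40, adjusted p = 0.468). Its partner S100a8 had 8.15 and 20.9 FPKM in Veh and 20.6 and 42.0 in PCN (1.11 ± 0.52), where the groups overlapped. S100a6, the most abundant of the list, lay lower in PCN, with 274 and 221 FPKM in Veh and 196 and 179 in PCN (-0.39 ± 0.12, adjusted p = 0.425). Gpr39, the zinc-sensing receptor of epithelia, had 3.44 ± 0.341 and 3.01 ± 1.36 FPKM (-0.19 ± 0.28).

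The genes next to the pair on chromosome 8 were tested to see how far the difference extended. On the side of Mt2 lie Bbs2 (73.8 kb away), Ogfod1 (105 kb) and Nudt21 (136 kb), and on the side of Mt1 lie Nup93 (34.3 kb), Herpud1 (198 kb) and Nlrc5 (243 kb). None of the 6 was called (limma), and their unadjusted p ran from 0.167 to 0.814. The closest, the nuclear pore gene Nup93, had 9.69 and 8.43 FPKM in Veh and 9.73 and 11.5 in PCN (0.20 ± 0.15, adjusted p = 0.720). Nlrc5, a regulator of MHC class I genes, had the largest difference of the 6 (0.26 ± 0.16, adjusted p = 0.691). Bbs2 lay lowest at -0.19 ± 0.21, while Ogfod1, Nudt21 and Herpud1 were at 0.07 ± 0.26, -0.06 ± 0.19 and 0.07 ± 0.11. The neighbouring genes named here are those present in the table, and others may lie between them.

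**Figure D4:**
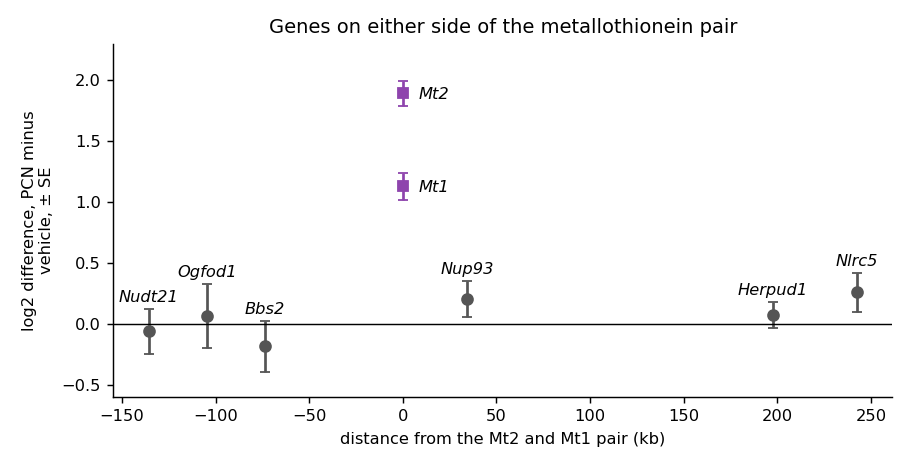
Log2 difference (PCN minus vehicle) with its SE of the 3 nearest measured genes on each side of the metallothionein pair, against distance from the pair in kb (negative on the Mt2 side). Mt2 and Mt1 stand at 1.90 and 1.13, and the 6 neighbours between -0.19 and 0.26.

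Genes with the pattern nearest to Mt1 and Mt2 over the 4 libraries were sought among the 5300 genes that averaged 10 FPKM or more. Likeness was the largest gap, in any library, between the log2(FPKM + 1) values of 2 genes after each was centred on its own mean. Nearest to Mt1 were Cpm (a carboxypeptidase, gap 0.12), Alas1 (the first enzyme of haem synthesis, 0.14), Dhrs1 (a dehydrogenase, 0.18), B3gnt7 (a glycosyltransferase, 0.18) and Duoxa2 (the maturation factor of the oxidase DUOX2, 0.20). Alas1 had 25.6 and 21.9 FPKM in Veh and 45.3 and 49.2 in PCN, and Duoxa2 had 45.0 and 44.3 in Veh and 77.3 and 89.6 in PCN. Nearest to Mt2 were 4931406C07Rik (0.22), the beta-defensin gene Defb37 (0.22), the small proline-rich gene Sprr2a3 (0.29), the glutathione transferase gene Gsta4 (0.40) and Cpm (0.42). Defb37 had 42.7 and 35.2 FPKM in Veh and 157 and 154 in PCN. Mt1 was the gene at rank 9 for Mt2, and Mt2 the gene at rank 237 for Mt1, with a gap of 0.51 between them. Slc30a1 ranked 700 and 1569 and Slc39a4 ranked 4105 and 4164 for Mt1 and Mt2, and Mtf1 was below 10 FPKM and not compared. Only 4 libraries enter this measure, and nothing on shared control follows from it.

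Several lists of cell type markers moved with the groups as well, and no gene of these lists was called (limma). All 10 smooth muscle markers had log2 differences below 0 (median -1.05), and 8 of them were lower at an unadjusted p under 0.05 (background 4.11%). Their summed FPKM was 403 to 811 in Veh and 226 to 283 in PCN, and none was at 0. The most abundant, Acta2 and Myl9, were at -0.83 ± 0.27 and -1.04 ± 0.36. When a score of these markers entered the fit as a covariate, the log2 differences were 1.02 ± 0.25 for Mt1, 2.11 ± 0.21 for Mt2, -0.06 ± 0.32 for Mtf1, -0.14 ± 0.23 for Slc30a1 and 0.23 ± 0.48 for Slc39a4. The score itself separated the groups (4.72 and 5.52 in Veh, 3.87 and 4.14 in PCN), the fit had 1 residual degree of freedom, and it called 0 genes (777 at an unadjusted p under 0.05), Mt2 included.

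The 10 epithelial markers summed to 10707 to 12294 FPKM in Veh and 7396 to 8134 in PCN, and both PCN libraries lay below both Veh libraries in 6 of the 10 (background 19.1%). Fabp6, the bile acid binding protein gene, made up most of that gap (-0.91 ± 0.13), and without it the sums were 4236 and 3950 in Veh and 3906 and 3744 in PCN. At an unadjusted p under 0.05 (limma), 4 of the 10 epithelial markers were lower (background 4.11%) and 1 was higher (background 5.25%). The lower ones were Fabp6, Slc51a (-0.53 ± 0.10), Alpi (-0.41 ± 0.10) and Vil1 (-0.18 ± 0.07). The higher one was Muc2, the main mucin of goblet cells, at 0.18 ± 0.06. The 10 immune markers summed to 796 to 826 in Veh and 955 to 1023 in PCN, with none at 0, and 2 were higher and 0 lower at an unadjusted p under 0.05 (background 5.25% and 4.11%). The gap came from Jchain, of antibody-secreting cells (0.42 ± 0.06), since without it the sums were 200.2 and 253 in Veh and 190.1 and 225 in PCN and overlapped. Of the genes of myeloid cells, Lyz2 was at -0.29 ± 0.16, Itgam at 0.68 ± 0.18 and Csf1r at 0.16 ± 0.10. Itgam had 5.88 and 5.97 FPKM in Veh and 8.57 and 11.9 in PCN (adjusted p = 0.349, limma). Besides Jchain, Itgam was the immune marker higher at an unadjusted p under 0.05.

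Of the 10 measured Paneth cell markers, 4 were higher at an unadjusted p under 0.05 (background 5.25%), and Slc30a2 was 1 of the 4. Reg3g, an antimicrobial lectin, was at 0.53 ± 0.11, whereas Defa22 (-0.01 ± 0.12) and Lyz1 (0.05 ± 0.08) were level. Among 4 measured colon markers, Car1, a carbonic anhydrase, had 22.3 and 17.0 FPKM in Veh and 106 and 60.7 in PCN (1.99 ± 0.29, adjusted p = 0.126), and the most abundant, Saa1, was at 0.16 ± 0.29. All 6 measured fat cell markers were below 0 (median -0.70), with Fabp4 at -0.66 ± 0.46, Cfd at -0.73 ± 0.57 and Cidec at -0.40 ± 0.33. The 10 fibroblast and endothelium markers summed to 234 to 245 FPKM in Veh and 210 to 211 in PCN. Of these, 7 were below 0, with Dcn at -0.04 ± 0.11, Col3a1 at -0.37 ± 0.07 and Col1a1 at -1.12 ± 0.16. The 3 above 0 were Pdgfra (0.34 ± 0.12), Cdh5 (0.26 ± 0.14) and Pecam1 (0.16 ± 0.17). At an unadjusted p under 0.05 (limma), 1 of the 10, Pdgfra, was higher (background 5.25%) and 2 were lower (background 4.11%). The part of these cell types in the metallothionein result was not tested beyond the covariate.

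The differences of Mt1 and Mt2 were then computed under 14 other settings. Mt1 ranged from 1.01 to 1.25 and Mt2 from 1.77 to 2.11, and both stayed above the reported log2 difference of every zinc transport gene. Without Veh replicate 2, the library that stood apart, they were 1.04 and 1.94. No ZIP or ZnT gene was called (limma) in the 10 settings that called any gene, and the other 4 called 0 genes in the whole table.

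**Figure D5:**
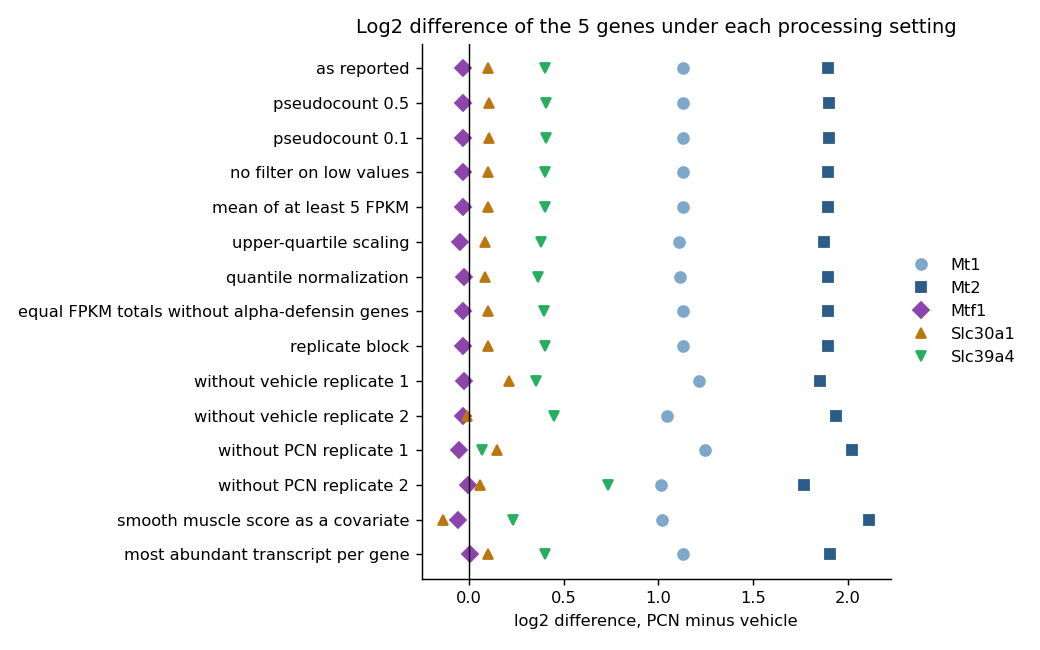
Log2 difference (PCN minus vehicle) of the 5 genes as reported (top row) and under the 14 other settings, 1 symbol per gene. Mt1 stays between 1.01 and 1.25 and Mt2 between 1.77 and 2.11, whereas Slc39a4 ranges from 0.07 to 0.73 when either PCN library is left out.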

How the data were processed

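RNA of 4 mouse ileum libraries (2 vehicle, 2 PCN, grouped by the labels) was sequenced after SMARTER library preparation. The deposited values were FPKM per transcript, as the authors made them. The submitters' processing notes name mm10 as the build. Supplementary methods of the study describe colon, STAR alignment to a pig genome and HTSeq counts, which conflict with the labels and the FPKM and were not used. No other aligner or quantifier was given in the sources used here. The table held protein-coding transcripts only, in each of which the higher group mean passed 1 FPKM (smallest 1.00005). A low gene can thus be present only through the group where it is high. FPKM keeps no read depth, so no counting interval is given, and a value is an estimate.

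Values were added up over the transcripts of a symbol. Of 11489 genes, the 11103 averaging 1 FPKM or more were fitted in limma 3.58.1 (R 4.3.3), with a mean-variance trend, as log2(FPKM + 1), and p-values were adjusted by Benjamini-Hochberg over all of them at 0.05. This scale understates the change of low genes. An exact permutation test of 2 against 2 cannot go below p = 0.333 (two-sided). The procedure was run on simulated data to see that known differences were recovered. That simulation had independent scatter and no library that stood apart, so it cannot vouch for the calls in these data. Sequences came from RefSeq (GRCm38.p6) and GENCODE M21.

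The members and gene lists were chosen with earlier results of these data known. Named genes were the 5 members, every measured Slc39 and Slc30 gene, called genes and the 2 most abundant of each other list, the 5 genes most like Mt1 and Mt2, and the 3 nearest measured genes on each side of the pair. Further genes of a list were named after their values were seen. Alternatives were other pseudocounts, filters, scalings, a replicate block, a smooth muscle covariate, the most abundant transcript per gene and each library left out.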

Additional observations from a re-analysis of the deposited data

How the results depend on the processing

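The count of genes called over the whole table, 15 as reported, was 9 at a pseudocount of 0.1, 56 with a mean of at least 5 FPKM, 60 with a replicate block, 7 with the most abundant transcript per gene and 0 with the smooth muscle covariate (limma, 777 genes at an unadjusted p under 0.05). It ran from 0 to 20 when 1 library was left out, with 20 without Veh replicate 1 and 0 without Veh replicate 2, PCN replicate 1 or PCN replicate 2. Mt2 was in none of these calls when any 1 library was left out or with the covariate, and 2 of the 5 zinc handling genes (Mt1 and Mt2) were called with the block and with a mean of at least 5 FPKM. The cause was not tested. Whether the shared replicate numbers pair the samples could not be told. Same-numbered libraries correlated at 0.0341 in their deviations from the group means. With 2 libraries per group this is a single correlation, and it cannot exclude a shared batch. With the replicate block 39 genes were higher and 21 lower. The block changed no log2 difference.

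Leaving out 1 library, the log2 difference ranged from 1.01 to 1.25 for Mt1, from 1.77 to 2.02 for Mt2, from -0.05 to -0.0055 for Mtf1, from -0.0076 to 0.21 for Slc30a1 and from 0.07 to 0.73 for Slc39a4. Other values that moved were 2.11 for Mt2, -0.057 for Mtf1 and -0.14 for Slc30a1 with the smooth muscle covariate, and 0.0048 for Mtf1 with the most abundant transcript. No called value changed sign. The median of all genes moved by at most 0.05. Read depth was unknown, and the 95% intervals of the 16 other tested zinc transport genes reached from -0.80 to 0.72.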

Other observations

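Mtf1 was the sum of 2 transcripts whose estimates traded against each other. ENSMUST00000106193.7 had 3.41 and 5.22 FPKM in Veh and 5.93 and 2.98 in PCN, or 52.0%, 80.1%, 91.3% and 47.5% of the gene. ENSMUST00000030723.2 took the rest, with 3.14 and 1.30 FPKM in Veh and 0.569 and 3.29 in PCN. The split followed no group, whereas the gene sum stayed between 6.27 and 6.55 FPKM. In Mt1 and Mt2 the main transcript held at least 98.2% of the gene in every library.

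The low zinc importers that did not enter the fit are given by value. Slc39a10, also reported to respond to MTF1, had 0.856 and 1.26 FPKM in Veh and 0.496 and 0.472 in PCN. It was in the table only through Veh, since its PCN mean (0.484) was under the limit of 1 FPKM. Its lower PCN values were thus partly set by that limit, and nothing is read from them. Slc39a13 had 0.825 FPKM in Veh replicate 1, nearly 0 in Veh replicate 2 and 0.834 and 1.32 in PCN. In turn it was in the table only through PCN, with a Veh mean of 0.413. Slc39a2, Slc39a12, Slc30a3 and Slc30a8 were not in the table analysed here.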
